A study of Mus musculus with 7 samples.

Results

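The genes described here are 9 genes of conventional dendritic cells (cDCs): Batf3, Nfil3, Irf4, Zbtb46, Clec9a, Xcr1, Cadm1, Clec10a and Wdfy4. Their histone marks were read in cells of a neighbouring lineage, common monocyte progenitors (cMoPs) sorted from mouse bone marrow. The members were the distinct peaks that overlapped one of these genes or lay within 50 kb of either gene end on mm10. They numbered 94 of the 105978 peaks in 5 lists, and the H3K4me2 peaks among them merged into 37 of 39395 autosomal regions. Peaks had been mapped by CUTAC, in which a transposase guided by an antibody cuts open DNA beside a histone mark. H3K4me2 lies at promoters and enhancers and H3K4me3 at active promoters.

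The genotypes differ at the -165-kb enhancer of Zeb2, which is WT in one and the DE variant in the other, and the labels do not describe the change in DE. H3K4me2 was profiled in 2 WT and 2 DE libraries, all of batch 2, and H3K4me3 in 1 WT library of batch 1. All 5 came from cells labelled cMoP. The labels give no strain, age, sex or number of animals, so the spread between replicates may be technical. Lists for the 2 other labelled samples, H3K4me3 in WT cells labelled MDP and IgG in WT cMoPs, were not analysed here.

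Conventional dendritic cells take up antigen and present it to T cells, and they fall into the cDC1 and cDC2 types. Batf3 and Nfil3 are transcription factors needed for cDC1, Irf4 is a factor of cDC2, and Zbtb46 is a zinc finger factor that marks both types among haematopoietic cells. Clec9a, Xcr1 and Cadm1 are surface molecules of cDC1, Clec10a is a lectin of cDC2 and macrophages, and Wdfy4 serves cross-presentation in cDC1. ZEB2 acts against the cDC1 fate, and NFIL3 represses Zeb2 on the way to it.

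The H3K4me2 lists differed in length. Those of WT had 32354 (replicate 1) and 28152 (replicate 2) peaks, those of DE 21968 and 17079, and H3K4me3 gave 6425. The depth of each library is unknown, as the lists give no read totals. Of all autosomal protein-coding genes, 49.5% and 50.5% had an H3K4me2 peak within 1 kb of a gene end in WT, and 46.2% and 41.6% in DE, so the DE lists called fewer. Within the same distance, 8 and 9 of 10 cMoP and monocyte marker genes had an H3K4me2 peak in WT, and 8 and 7 in DE. Granulocyte markers, 8 in all, had more calls in both DE lists (7 and 8) than in the WT lists (5 and 6). Of 5 T cell markers 1 and 2 were called in WT and 0 in each DE list. For 6 plasmacytoid dendritic cell markers the number was 2 in each of the 4 lists. Of 5 B cell markers 1 and 1 were called in WT and 2 and 1 in DE. Of 4 NK markers, and likewise of 4 erythroid and megakaryocyte markers, 0 were called in both WT lists and 1 in both DE lists. For 4 mast cell and basophil markers 1 was called in each list. The part of these markers in the results below was not tested. The lists recorded for both DE replicates carry the name of DE replicate 2 in their headers, and the replicate was taken from the record of each sample.

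The windows around 4 gene starts show the range of what was called at the members, and each is given from 250 bases before the annotated start to 50 bases after it, as RefSeq has it for GRCm38.p6. Of the 9 genes, 7 had such a window. Capitals mark the bases that lay under peaks of both WT H3K4me2 lists. Batf3 is shown because its window was called in both WT lists and in neither DE list. Nfil3 and Wdfy4 are shown because theirs were called in all 4 lists, and Irf4 because no list had a call there. The windows are chr1:191098164-191098463 on the plus strand for Batf3, chr13:52980990-52981289 on the minus strand for Nfil3, chr14:33185017-33185316 on the minus strand for Wdfy4 and chr13:30748983-30749282 on the plus strand for Irf4.
Batf3: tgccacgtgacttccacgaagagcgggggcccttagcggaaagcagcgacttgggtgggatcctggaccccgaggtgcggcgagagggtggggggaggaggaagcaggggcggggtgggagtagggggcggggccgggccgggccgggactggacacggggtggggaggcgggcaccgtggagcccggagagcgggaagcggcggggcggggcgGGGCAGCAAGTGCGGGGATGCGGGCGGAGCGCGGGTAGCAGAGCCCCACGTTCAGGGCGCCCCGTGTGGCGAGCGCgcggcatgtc
Nfil3: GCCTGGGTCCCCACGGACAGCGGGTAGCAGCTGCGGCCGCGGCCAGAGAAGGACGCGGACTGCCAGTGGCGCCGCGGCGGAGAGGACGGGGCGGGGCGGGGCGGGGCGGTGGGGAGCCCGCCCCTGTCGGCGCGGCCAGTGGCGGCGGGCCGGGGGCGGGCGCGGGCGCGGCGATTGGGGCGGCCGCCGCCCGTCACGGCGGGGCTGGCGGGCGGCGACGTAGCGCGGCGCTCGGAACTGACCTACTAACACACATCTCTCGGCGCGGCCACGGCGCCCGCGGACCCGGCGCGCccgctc
Wdfy4: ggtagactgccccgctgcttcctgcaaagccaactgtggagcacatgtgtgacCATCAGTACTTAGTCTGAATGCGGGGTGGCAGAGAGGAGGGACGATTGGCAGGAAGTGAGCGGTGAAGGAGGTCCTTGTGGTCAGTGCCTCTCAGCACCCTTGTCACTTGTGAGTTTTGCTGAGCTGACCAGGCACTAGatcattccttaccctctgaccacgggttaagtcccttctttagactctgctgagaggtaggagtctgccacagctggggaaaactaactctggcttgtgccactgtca
Irf4: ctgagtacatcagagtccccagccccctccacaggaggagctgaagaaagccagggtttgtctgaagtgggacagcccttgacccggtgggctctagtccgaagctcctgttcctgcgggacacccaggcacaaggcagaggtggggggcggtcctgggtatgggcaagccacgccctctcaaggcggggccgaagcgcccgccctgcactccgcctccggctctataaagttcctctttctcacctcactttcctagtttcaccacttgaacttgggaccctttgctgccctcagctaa
In the Batf3 window the bases shared by the WT peaks were 76 of 300, and they reached over the start itself. They held 10 CpG pairs. In the Nfil3 window 294 bases were shared by the WT peaks, all 300 lay under the peak of DE replicate 1 and 197 under that of DE replicate 2. In the Wdfy4 window 139 bases were shared by the WT peaks, while DE replicates 1 and 2 covered 139 and 90 bases. No H3K4me3 peak reached into any of these windows.

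Batf3 (gene ID 381319) lies at 191098414 to 191108943 of chromosome 1 and had 4 H3K4me2 regions. The region over its start, 191098281 to 191098469, was called in WT replicates 1 and 2 and in neither DE list. Its fold over the local background, the value that the authors' caller gave, was 6.13 in WT replicate 1 and 5.98 in WT replicate 2. It stood at 41.9% and 69.3% of those lists when peaks were ordered from the strongest by −log10 p, so it was of middling strength in one and weaker than most in the other. Of the 3 other regions, the strongest was 191062721 to 191063281, 35.1 kb before the start. That region covers an end of Nsl1, a kinetochore gene, and overlaps the start window of Tatdn3. It was called in all 4 lists and carried an H3K4me3 peak. Its fold was 14.8 and 21.2 in WT and 10.3 and 11.03 in DE. The remaining 2, at 191085773 to 191085893 and 191147723 to 191147863, were called in DE replicate 1 alone. They stood at 99.0% and 74.9% of that list.

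Nfil3 (gene ID 18030) lies at 52967209 to 52982878 of chromosome 13 and had 8 regions, of which 7 lay in the gene or nearest to its end. The region over its start, 52980238 to 52981999, was called in all 4 lists. It held 3 separate peaks in each of WT replicates 1 and 2 and in DE replicate 2, and 1 peak of 1516 bp in DE replicate 1. Fold at the strongest peak was 15.1 and 21.6 in WT and 5.67 and 5.08 in DE. The peak stood at 5.71% and 4.10% of the WT lists and at 33.9% and 57.1% of the DE lists. A second region in the gene, 52976735 to 52977023, was also called in all 4 lists, with fold 4.06 and 5.45 in WT and 3.95 and 5.26 in DE. The region was thus weak in each list, and the folds of WT and DE overlapped. Its peaks in WT replicates 1 and 2, 52976735 to 52976891 and 52976923 to 52977023, did not overlap each other. The DE peaks joined them into 1 region. Just beyond the gene end at the higher coordinate, 52982921 to 52983053 had a peak in 1 list of each genotype, WT replicate 2 and DE replicate 1. At Nfil3 0 regions separated the WT lists from the DE lists.

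Irf4 (gene ID 16364), at 30749233 to 30766981 of chromosome 13, had no peak in its 50 kb window in any of the 5 lists. No H3K4me2 region at all lies within 50 kb of 14.6% of autosomal protein-coding genes. The nearest region to Irf4, 30834471 to 30834548, was 67.5 kb away and was called in WT replicate 1 alone. The nearest H3K4me3 peak lay 764 kb away.

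Zbtb46 (gene ID 72147), at 181371009 to 181493262 of chromosome 2, had the most regions of the 9 genes, 12, and more than 88.3% of coding genes had. Most of them lay at its neighbours. The RefSeq start window, 181424339 to 181424638, was called in no list, and 3 regions lay inside the gene. The strongest of the 3, 181459106 to 181459616, lay at −34.7 kb from that start and was called in both WT lists and in DE replicate 1. Its fold was 6.99 and 8.20 in WT and 5.14 in DE replicate 1. The other two inside the gene were called in WT replicate 2 with DE replicate 1, and in WT replicate 2 alone. By mean place over the lists the strongest region of the window, 181365818 to 181366280, lay 4.73 kb outside the gene and 414 bp from the end of Arfrp1, an ARF-related GTPase gene. It was called in all 4 lists and for H3K4me3, with fold 8.47 and 11.8 in WT and 10.2 and 9.29 in DE. Both DE values lay between the WT values.
Near Zbtb46, 3 regions were called in both WT lists and neither DE list, all outside the gene on the side of the higher coordinate. They were 181495984 to 181496200 and 181497649 to 181497778, each within 1 kb of the end of Tpd52l2, and 181520743 to 181520937 inside Dnajc5, the gene of a synaptic vesicle chaperone. The strongest of them was 181497649 to 181497778, at 37.6% and 36.6% of the WT lists.

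Of the surface molecules of cDC1, Clec9a (gene ID 232414, 129408862 to 129424764 of chromosome 6) had no call in or beside the gene. Its one region, 129472762 to 129472953, lay 48.0 kb away and overlapped the start window of Clec7a, the gene of the beta-glucan receptor dectin-1. It was called in WT replicate 2 alone.

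Xcr1 (gene ID 23832, 123852315 to 123862029 of chromosome 9) is a chemokine receptor gene whose start window, 123861980 to 123862279, was called in no list. At its other end lay the region 123851784 to 123852206, the strongest of all 37 in both WT lists. It was 109 bp from Xcr1, 9.82 kb from its start, and overlapped the start window of Fyco1, an autophagy adaptor gene. Fold was 27.1 and 25.3 in WT and 7.40 and 6.45 in DE, and an H3K4me3 peak lay in it. It stood within the top 0.297% and 0.320% of the WT lists and at 7.97% and 13.3% of the DE lists. A gene-end count credits this region to Xcr1 although it lies over the start of the neighbour. Beside it, 123851435 to 123851541 was called in WT replicate 1 alone and 123850808 to 123850930 in WT replicate 2 alone.

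Cadm1 (gene ID 54725, 47530170 to 47862280 of chromosome 9), a cell adhesion gene of 332 kb, had 2 regions. The region over its end at the lower coordinate, 47530144 to 47530391, was called in both WT lists and neither DE list. Fold was 4.06 in WT replicate 1 and 8.11 in WT replicate 2, and the place was 84.4% and 46.0%. The other region, 47621065 to 47621173, lay 90.9 kb inside the gene and was called in DE replicate 1 alone.

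Clec10a (gene ID 17312, 70166623 to 70170836 of chromosome 11) had 6 regions. The one nearest to it, 70166472 to 70166581, lay 42 bp beyond the end at the lower coordinate and was called in both WT lists and neither DE list. Fold was 5.42 and 4.83 in WT, and the place was 58.2% and 79.5%. The region 70130033 to 70130158 had the same calls and overlaps the start window of Mgl2, a related lectin gene. At the far edge of the window, 70220758 to 70221335 inside Slc16a13, a monocarboxylate transporter gene, was called in all 4 lists with fold 14.1 and 19.1 in WT and 11.7 and 8.32 in DE. It was the strongest of the 37 regions in both DE lists. This region crosses the 50 kb limit. The strongest peak in it began beyond the limit in both WT lists and in DE replicate 2, and in DE replicate 2 it was the only peak there, so that library has 0 peaks in the count for Clec10a.

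Wdfy4 (gene ID 545030, 32959547 to 33193855 of chromosome 14) had 1 region in 234 kb of gene, and it overlapped the start window in part. The region, 33185118 to 33185670, came no nearer to the annotated start than −0.052 kb and so did not reach it. It was called in all 4 lists. Each WT list had 2 peaks in it and each DE list 1. Fold at the strongest peak was 7.17 and 5.55 in WT and 6.53 and 6.29 in DE, and both DE values lay between the WT values. Those strongest WT peaks lay outside the start window, while both DE peaks reached into it. The WT peaks that reached into the window had fold 4.82 and 3.06 and stood at 55.3% and 86.7% of the WT lists. Each DE peak also overlapped the stronger WT peaks outside the window. The fold of a DE peak is therefore not that of the window alone and is not set against these. The region lies 8185 bp from the end of the gene record, so a count at gene ends does not see it.

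**Figure D1:**
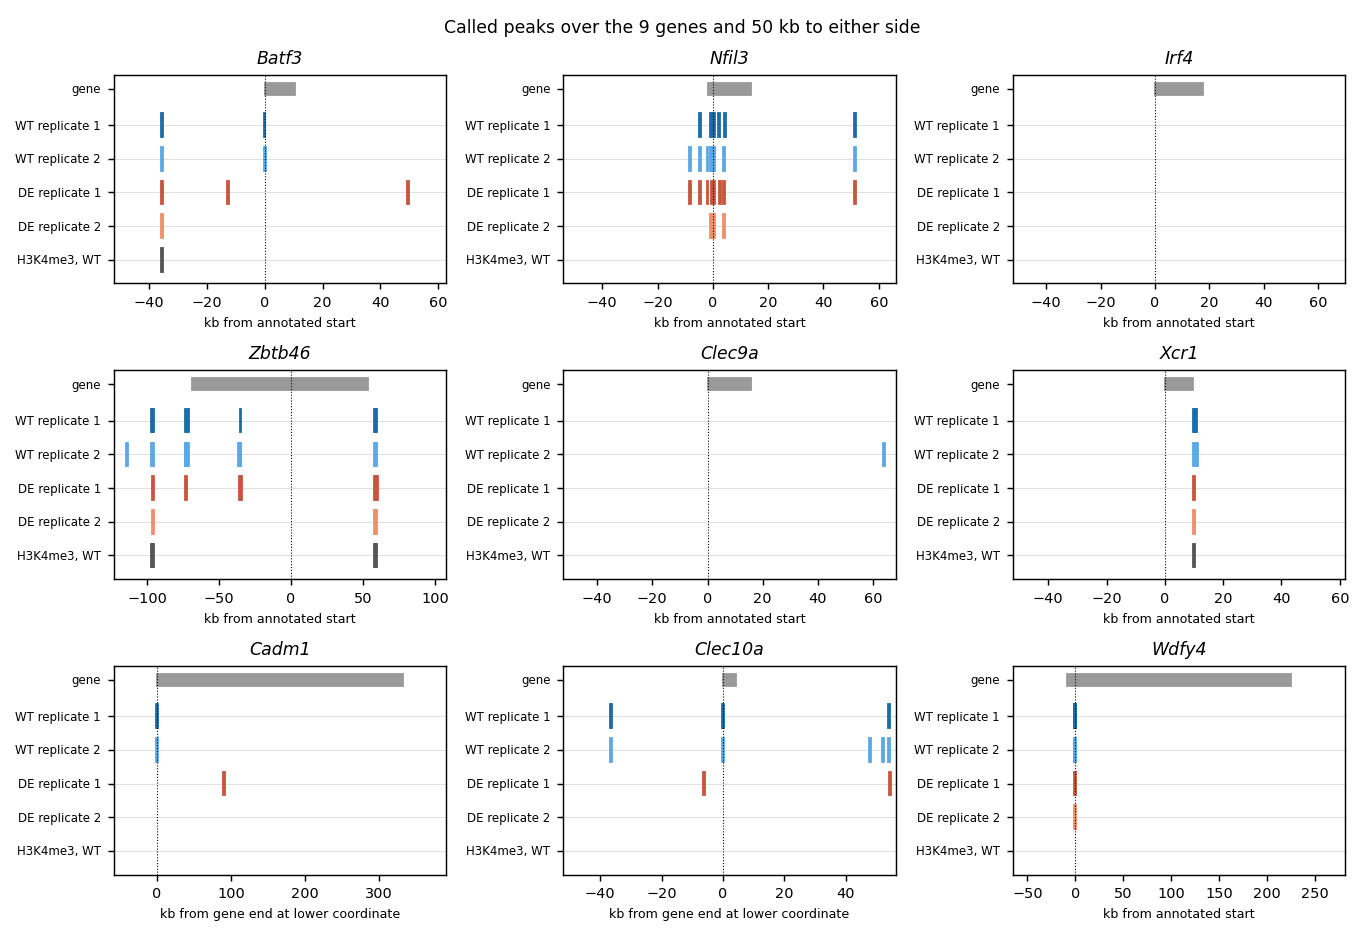
Peaks of the 5 lists over the 9 genes and 50 kb to either side. The x axis is the distance in kb from the annotated start in the direction of the gene, or from the gene end at the lower coordinate for Cadm1 and Clec10a; the rows are the libraries, coloured bars are peaks (narrow ones are widened to be visible) and the grey bar is the gene. The Irf4 panel is empty, and the peaks at the start of Batf3 are in the 2 WT rows alone.

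**Figure D2:**
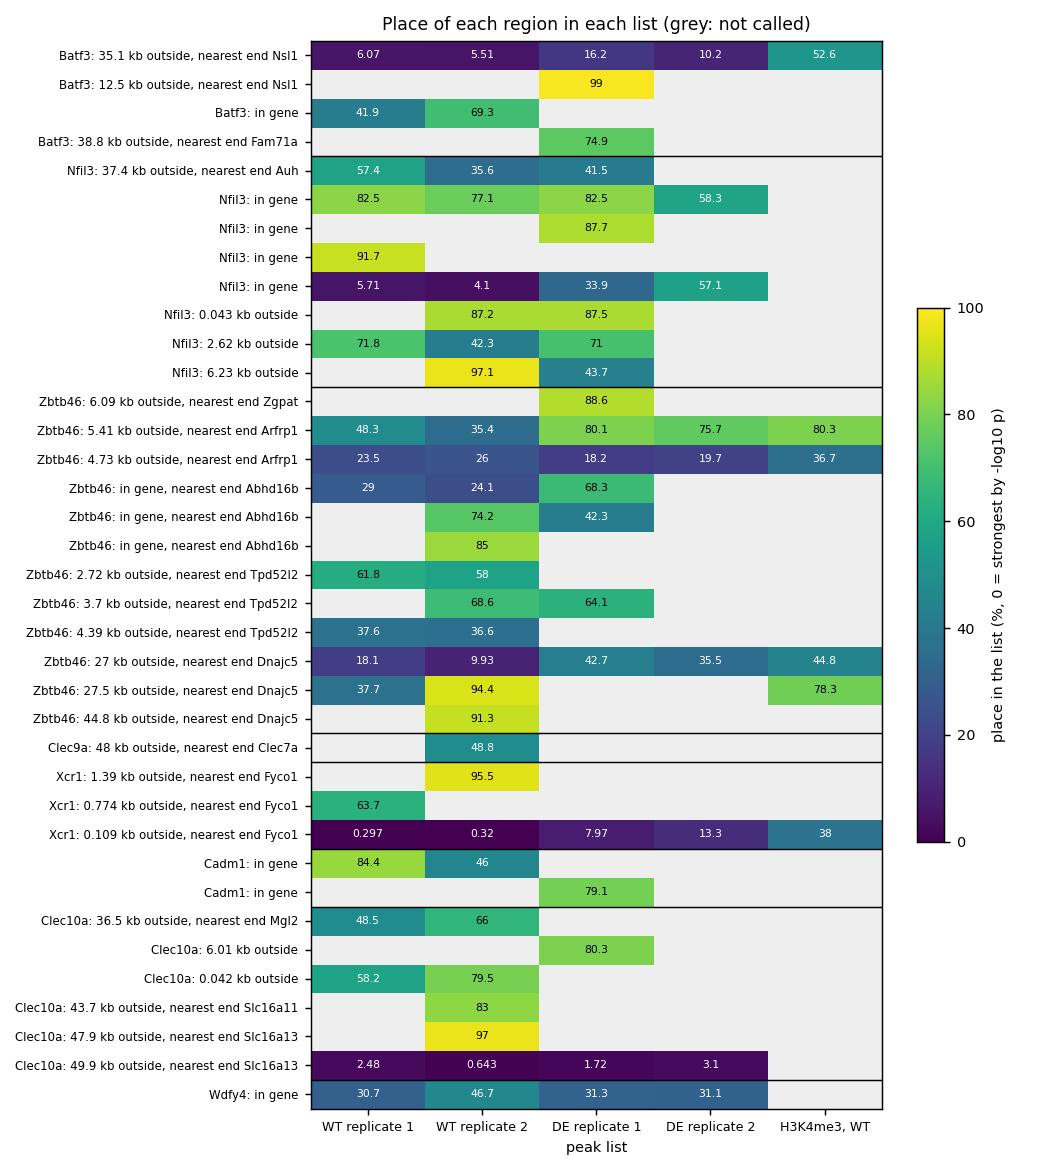
Place of each of the 37 regions in each list, in percent of the list from the strongest peak by −log10 p (0) to the weakest (100), by gene in order of coordinate. Grey cells have no call, and the region beside Fyco1 at Xcr1 has the lowest values in both WT columns, 0.297 and 0.320.

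The first comparison asked whether the number of H3K4me2 peaks at these genes differed between WT and DE cMoPs. WT replicates 1 and 2 had 24 and 32 such peaks and DE replicates 1 and 2 had 22 and 10. Both DE values were thus below both WT values, with means of 28 ± 5.66 in WT and 16 ± 8.49 in DE (SD, n = 2 each). The ratio of the means was −0.81 on the log2 scale (exact permutation p = 0.333, two-sided). No smaller p can come from 2 libraries against 2. The log2 ratio was −1.49 without DE replicate 1 and −0.35 without DE replicate 2. The DE lists were shorter as a whole. With each list limited to its 17079 strongest peaks the members had 14 and 17 peaks in WT and 14 and 10 in DE, so that replicate 1 of DE equalled replicate 1 of WT (log2 ratio −0.37, exact permutation p = 0.667, n = 2 each). Per 1000 peaks of the list the members had 0.742 and 1.14 peaks in WT and 1.00 and 0.586 in DE, so the genotypes overlapped. On that scale the log2 ratio was −0.24 (exact permutation p = 0.667, n = 2 each), and it was 0.10 without WT replicate 2 and 0.09 without DE replicate 2. By gene, Nfil3 had 7 and 8 peaks in WT and 7 and 4 in DE, and Zbtb46 had 7 and 11 in WT and 7 and 3 in DE. Clec10a had 3 and 5 in WT and 2 and 0 in DE. Batf3 had 2 in each WT list and 3 and 1 in DE, and Wdfy4 had 2 in each WT list and 1 in each DE list. Separate peaks of a region each counted here, as at Wdfy4, whose peaks lay in 1 region. Counted as regions, DE replicate 1 was no longer below both WT lists. WT replicate 1 and DE replicate 1 shared 12 regions, 57.1% of those of WT replicate 1 and 54.5% of those of DE replicate 1. DE replicate 1 thus had more regions than WT replicate 1.

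**Figure D3:**
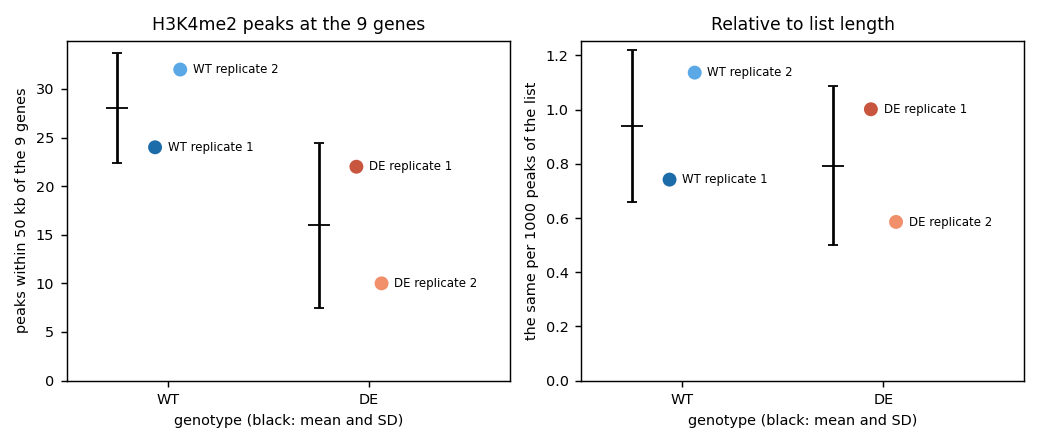
H3K4me2 peaks within 50 kb of the 9 genes in each library (left) and the same per 1000 peaks of its list (right). Points are libraries, and the black mark and bar are the mean and SD of 2 libraries. On the left both DE points lie below both WT points, and on the right DE replicate 1 (1.00) lies above WT replicate 1 (0.742).

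The second comparison asked which regions were called in one genotype alone. Of the 37 regions, 7 were called in both WT lists and neither DE list, which is 18.9%, beside 8.77% of all autosomal regions. The opposite pattern, both DE lists and neither WT list, had 0 regions, beside 1.1% of all regions. Lists of equal length changed this: with each list limited to its 17079 strongest peaks, 1 of 23 regions had the WT pattern (4.35%, beside 3.65% of all regions) and 0 the DE pattern (beside 4.27%). With −log10 q of 5 or more the WT pattern held 4 of 20 regions (20%, beside 12.3%). With all peaks it held 13 regions without WT replicate 1, and the DE pattern held 6 without DE replicate 2. Leaving out a library adds the regions called in its partner alone. Calls in WT replicate 2 alone made up 16.2% of the member regions and 12.1% of all regions. Calls in DE replicate 1 alone made up 16.2% and 7.33%. The region that kept the WT pattern at equal length was 181497649 to 181497778 near Tpd52l2. The peak at the start of Batf3 then remained in WT replicate 1 alone and that at the end of Cadm1 in WT replicate 2 alone, and the one at Clec10a was in no list. In WT replicates 1 and 2 the 7 regions had median places of 48.5% and 66.0%, and all regions of that pattern 60.3% and 66.7%. Regions called in all 4 lists were stronger, with medians of 18.1% and 9.93% for the members and 22.7% and 23.1% for all. Of the 7, the 3 at Batf3, Cadm1 and Clec10a lay in the gene or nearest to its end, and the other 4 lay nearest to Tpd52l2, Dnajc5 and Mgl2.

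**Figure D4:**
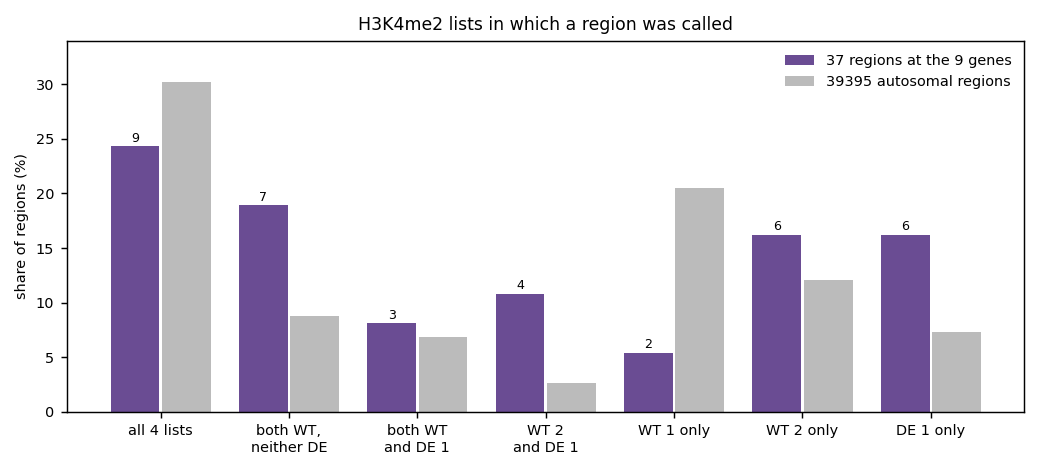
Share of regions (%) by the H3K4me2 lists in which they were called, for the 37 regions at the 9 genes (purple, with their number above the bar) and for all 39395 autosomal regions (grey). The pattern of both WT and neither DE list held 7 of the 37.

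Counted at gene ends, within 1 kb of either end, Batf3, Cadm1 and Clec10a had a call in both WT lists and in neither DE list. These 3 of 9 genes stand beside 3.03% of autosomal protein-coding genes, 627 in number, with the same pattern. The opposite pattern was found at 0 of the 9, beside 0.223%. Xcr1 was called in all 4 lists through the region over the start of Fyco1, as were 39.1% of coding genes. Nfil3 was called in WT replicate 2 and both DE lists, a set of calls shared by 129 coding genes. WT replicate 2 and DE replicate 1 had the peak at 52982921 to 52983053, and in both DE lists a peak of the start region also reached into the 1 kb. Irf4, Zbtb46, Clec9a and Wdfy4 had no such call, as 46.2% of coding genes. At a −log10 q of at least 5, as with lists of equal length, 0 of the 9 had the WT pattern. With lists of equal length Nfil3 took the opposite pattern, with a gene-end call in both DE lists and neither WT list. The WT replicate 2 peak beyond its end, at 87.2% of that list, was then cut. The DE calls came from peaks of the start region, which all 4 lists still called. Shares of coding genes at these settings are not given here. Read at the RefSeq start windows, 1 of 7 genes, Batf3, had the WT pattern (3.58% of the 20054 windows of coding genes). Cadm1 and Clec10a had no window and could not be read there. Nfil3 and Wdfy4 were called in all 4 lists (33.3% of windows), and Irf4, Zbtb46, Clec9a and Xcr1 in none (50% of windows).

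The third comparison was the order of the shared members within each list. All 4 lists shared 9 regions, 24.3% of the 37, beside 30.2% of all autosomal regions. Ordered by −log10 p among these 9, the start region of Nfil3 was at position 3 in both WT lists and at 6 and 7 in DE replicates 1 and 2. The region of Wdfy4 was at 7 and 8 in WT and at 5 in both DE lists. The region beside Fyco1 at Xcr1 was at 1 in both WT lists and at 2 and 3 in DE, and the region in Slc16a13 near Clec10a was at 2 in both WT lists and 1 in both DE lists. The region at Tatdn3 and Nsl1 near Batf3 was at 4 in both WT lists and at 3 and 2 in DE. Near Zbtb46, the region in Dnajc5 was at 5 in both WT lists and at 7 and 6 in DE, and 181365818 to 181366280 was at 6 in both WT lists and at 4 in both DE lists. The other region at Arfrp1, at 8 and 7 in WT and at 8 and 9 in DE, and the second Nfil3 region, at 9 in both WT lists and at 9 and 8 in DE, overlapped between genotypes. Positions were not tested, since these regions share the same 4 libraries.

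The fourth comparison set H3K4me3 beside H3K4me2. The H3K4me3 list held 6 peaks at the members, each in a different H3K4me2 region, and 0 of them lay in a member gene or nearest to its end. They lay at Tatdn3 and Nsl1, at Arfrp1 (2 peaks), in Dnajc5 (2 peaks) and over the start of Fyco1. Both WT lists called 19 of the 37 regions, beside 47.9% of all autosomal regions. Of the 19, 6 carried H3K4me3, which is 31.6% (95% Wilson interval 15.4 to 54.0, counting error only), beside 28.2% of all such regions. Of the 8 among them in a member gene or nearest to its end 0 did. Of the 11 nearest to another gene 6 did. For 0 of 8 the rule of 3, which divides 3 by the number of regions, allows a share of up to 37.5%. That limit is rough for so few regions and is not a Wilson limit. None of the 7 start windows had an H3K4me3 peak, beside 19.3% of windows that had one. That share differed with base composition, as given below. Since H3K4me3 came from 1 library of another batch, the mark cannot be told apart from the batch.

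The start windows differed in base composition, which the choice of genes did not use. The Nfil3 window had 81.7% GC and 54 CpG pairs and the Batf3 window 75.7% and 34, beside medians of 57% and 14 over all windows. Irf4 had 61% GC and 11 CpG pairs, Wdfy4 54.3% and 5, Zbtb46 50.7% and 1, Xcr1 40% and 6 and Clec9a 37% and 1. Nfil3 and Batf3 were the CpG-rich ones, with at least 55% GC and a ratio of observed to expected CpG of at least 0.6. Of the 8469 CpG-rich windows, 60.7% were called in all 4 lists, 5.23% in both WT and neither DE list and 16.6% in none. Of the other windows these shares were 13.2%, 2.37% and 74.4%. Nfil3 thus had the calls most frequent among CpG-rich windows and Batf3 a rarer set, while Wdfy4 was called in all 4 lists without being CpG-rich. An H3K4me3 peak lay in 35.5% of the CpG-rich windows and in 7.38% of the others.
Short motifs were counted on both strands as a description of the letters. The E box CANNTG, the core bound by E proteins, was in all 7 windows and in 68.7% of all windows, with 6 matches in Zbtb46 and 5 in Wdfy4. Its form CACCTG was in Zbtb46 alone and in 20.04% of all windows, and the form CAGCTG in Nfil3 and Wdfy4 and in 15.7%. The PU.1 core GAGGAAG was in Batf3 alone (13.2% of all windows) and TGANTCA, bound by AP-1 and BATF factors, in Zbtb46 alone (7.06%). The GC box GGGCGG had 9 matches in Nfil3, 5 in Batf3 and 2 in Irf4 and was in 47.0% of all windows. The interferon-stimulated response element and the NFIL3 form TTATGTAA were in 0 of the 7 windows, and in 3.36% and 0.903% of all windows.

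Other genes of dendritic cells were read in the same way. Of 40 related genes, 24 and 22 had a gene-end peak in the WT lists (60% and 55%, beside 49.5% and 50.5% of all coding genes) and 20 and 19 in the DE lists (50% and 47.5%, beside 46.2% and 41.6%). In all 4 lists 17 were called (42.5%, beside 39.1% of coding genes), among them the regulators Irf8, Id2, Zeb2 and Bcl6, the cytokine receptor Flt3 and the NF-kappaB subunit Relb. Only Runx3, a Runt transcription factor, and Ppt1, a lysosomal thioesterase, had a call in both WT lists and neither DE list, which is 5% beside 3.03%. The opposite pattern had 0 genes and no H3K4me2 list called 13. H3K4me3 was called at 5 of the 40 (12.5%, beside 21.6% of coding genes), which were Irf8, Klf4, Etv6, Cd24a and Cbfa2t3, named after their values were seen.

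The 50 kb limit of the window fell beside a strong region. Just inside it lay 70220758 to 70221335, 49.9 kb from Clec10a, called in all 4 lists. Just outside lay 181319592 to 181320074, 50.9 kb from Zbtb46 and nearest to Rtel1, also called in all 4 lists.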

How the data were processed

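CUTAC libraries were sequenced as paired ends, per the labels' protocols. Per the submitters' processing notes, MACS2 2.2.9.1, Bowtie2, Picard, SAMtools and Trimmomatic were used, with the build mm10. For caller settings and the control, the sources used here give nothing. Each list is of 1 library. The authors deposited, per peak, a score (10 times the −log10 q, as a whole number), a linear ratio, the fold of the signal above local background, the −log10 p and −log10 q of the summit, and the summit offset. These are the authors' values and were used within a list. Folds of different lists stand side by side without a test.

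Summits of one interval were counted once, by the strongest p. Peaks of the 19 autosomes, X and Y gave list lengths. Touching or overlapping H3K4me2 intervals of the autosomes were merged into regions, and 1 bp of overlap made a call. Genes and 300 bp start windows are of RefSeq, GRCm38.p6, the assembly of mm10. All 9 members and 40 related genes matched by symbol, and 7 members had a window, 1 each. Other genes can have several, and shares are over windows. Coordinates count from 1. No list of problem regions was applied. Peaks per library were compared by exact permutation, two-sided, over all 6 assignments of libraries. The replicate block used exact sign flips over the 2 pairs. Nothing else was tested. The code (Python 3.11.15, pandas 2.3.3) recovered planted patterns in simulated data. Those data held no split peaks and no neighbouring regions that could merge, so such cases were not checked. Named were all members, and of each its regions at gene ends, those of 1 genotype and the strongest. Other regions named were chosen after their values were seen, as were the CpG-rich class and the added alternatives. The members and lists were chosen with earlier results of these data known. As alternatives the analysis used peaks with −log10 q of 5 or more, equal list lengths, windows of 10 and 100 kb, gene ends within 2 kb, merging within 500 bp, presence by 50% cover, leaving out each replicate and the replicate block. Added later were start windows, and only regions in the member gene or nearest to its end.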

Additional observations from a re-analysis of the deposited data

How the results depend on the processing

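The mean number of peaks at the members was lower in DE under every alternative run, although with equal lengths a DE library equalled a WT one (14 peaks each). The log2 ratio ran from −1.49 (without DE replicate 1) to −0.35 (without DE replicate 2). The ratio per 1000 peaks ran from −0.68 without DE replicate 1 to 0.10 without WT replicate 2, and was 0.09 without DE replicate 2. With the replicate block the log2 ratios were −0.90 (exact sign-flip p = 0.5, the smallest that 2 pairs allow) and −0.26 (exact p = 1). The labels do not say that replicate numbers pair the samples. Over the 11891 regions of all 4 lists, the difference between replicates 1 and 2 in WT had a correlation of −0.0220 with that in DE (log2 fold).

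Regions in all 4 lists numbered 20 with a window of 100 kb, 5 with 50% cover and 3 when only regions in the member gene or nearest to its end were counted, and 9 to 12 with 1 library left out. Regions of the WT pattern numbered 4 at a −log10 q of at least 5, 1 with equal lengths, 3 in or nearest to the member genes, and 7 to 13 with 1 library left out (13 without WT replicate 1). Regions of the DE pattern numbered 0 to 6 with 1 library left out, and the 6 arose without DE replicate 2, where a call in DE replicate 1 alone meets the pattern. The share with H3K4me3 was 0% for regions in or nearest to the member genes 20.7% to 28.6% with 1 WT library left out and 50% with equal lengths. Genes with the WT pattern at their ends numbered 0 at a −log10 q of at least 5, 0 with equal lengths, 1 at start windows and 3 with any 1 library left out. At start windows Cadm1 and Clec10a could not be counted, as neither had a window. Why the other counts moved was not tested. Apart from the lists as deposited, pattern shares over all regions are given only for equal lengths and for a −log10 q of at least 5. For the other settings the member counts thus stand without a share to set beside them. Shares over coding genes are given only for the lists as deposited, at gene ends and at start windows. With 2 libraries per genotype and unknown depth, a missing call does not show that a mark was absent.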

Other observations

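Of the 37 regions, 14 were called in 1 H3K4me2 list, a smaller share than the 42.5% of all regions. Of the 14, WT replicate 1 gave 2, WT replicate 2 gave 6, DE replicate 1 gave 6 and DE replicate 2 gave 0. They were weak, with a median place of 86.3% in their list (range 48.8% to 99.0%). DE replicate 1 alone gave 16.2% of the member regions and 7.33% of all regions, and WT replicate 2 together with DE replicate 1 gave 10.8% and 2.61%. DE replicate 2 had 9 member regions, and all 9 were called in each of the 3 other lists. Over the autosomes WT replicate 1 called 83.7% of its regions, WT replicate 2 called 87.2% and DE replicate 1 called 84.2%. Median peak width at the members was 153.5 and 181 bp in WT and 277.5 and 316 bp in DE, and over whole lists 152 and 212 bp in WT and 249 and 246 bp in DE. The wider peaks of the DE lists thus held at the members and over the whole lists.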
